A study of Mus musculus with 18 samples.

Results

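The genes described here are 10 inflammatory genes of mouse islets: the chemokine genes Ccl2, Cxcl1, Cxcl2 and Cxcl16, the cytokine genes Il1b, Il6 and Tnf, and the NF-kB target genes Ptgs2, Icam1 and Nfkbia. They were chosen by gene symbol, and all 10 were found among the 24346 symbols of the deposited tables. Pancreatic islets, clusters of insulin-, glucagon- and other hormone-secreting cells, had been isolated from C57BL/6 mice, and RNA was measured by sequencing of full-length cDNA. Exon 2 of Cdh13, the gene of the adiponectin-binding cell surface protein T-cadherin, was deleted in one genotype and floxed (flanked by loxP sites, with the exon still present) in the other, which the series calls wild type. The groups were deleted and floxed islets at 14 weeks of age after 6 weeks on a high-fat diet, deleted and floxed islets at 14 weeks on normal chow, and deleted and floxed islets at 8 weeks on normal chow, with 3 libraries in each of the 6 groups. The diet had been started at 8 weeks of age. The labels used here name no Cre driver, do not say whether islets were pooled across animals, and do not say that replicates were separate animals, so each p-value measures only the spread between these samples.

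NF-kB transcription factors are held in the cytoplasm by inhibitor proteins, of which the Nfkbia product, IkB-alpha, is the best known. Signals from receptors for interleukin-1, TNF and microbial products lead to destruction of the inhibitor, and the freed factors enter the nucleus and raise transcription of cytokine, chemokine and adhesion genes, and of Nfkbia itself as a feedback brake. In islets these genes are known from resident macrophages, endothelial cells and the endocrine cells themselves, and interleukin-1 beta is known to impair beta cells. In bulk samples of this kind, fewer cells of a type and less RNA per cell cannot be told apart.

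The values were gene-level FPKM (fragments scaled to transcript length and to sequencing depth), so levels can be compared between genes per length. Each library had 11474 to 11787 genes at or above 1 FPKM, and the insulin gene Ins2 held 40.2% to 52.7% of the summed FPKM, so the tissue carried its defining transcript in every library. The Ins2 share was 50.2% to 52.7% on the high-fat diet, 40.2% to 43.8% on chow at 14 weeks and 43.8% to 48.2% at 8 weeks. Its part in the diet and age results was not tested. How many fragments were sequenced is unknown. Cdh13, the targeted gene, measured 0.456 ± 0.308 FPKM in deleted and 1.33 ± 0.141 FPKM in floxed islets on the high-fat diet (mean ± SD, n = 3 each). It measured 0.551 ± 0.136 and 1.67 ± 0.366 FPKM in deleted and floxed islets at 14 weeks on chow, and 0.632 ± 0.242 and 1.34 ± 0.433 FPKM at 8 weeks. The genotypes did not overlap in any condition (exact two-sided permutation p = 0.1 in each, the smallest that 3 against 3 allows), and residual values are for the whole gene, not for exon 2.

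The 10 genes spanned a wide range of levels. Nfkbia was the most abundant, at 30.0 to 49.8 FPKM over the 18 libraries with a median of 33.0 FPKM, followed by Cxcl16 at 15.2 to 31.7 FPKM with a median of 21.1 FPKM. Il1b had a median of 5.76 FPKM and Ccl2 of 4.33 FPKM. Icam1 (median 1.54 FPKM), Il6 (1.05), Cxcl1 (0.909) and Ptgs2 (0.715) lay near 1 FPKM. Tnf and Cxcl2 never reached 1 FPKM, with highest values of 0.524 and 0.316 FPKM, and they were listed at 0 in 4 and 9 libraries. Genes were tested where at least 3 libraries reached 1 FPKM, which 12234 genes did, among them 8 of the 10. Cxcl1, Il6 and Ptgs2 entered through only 8, 10 and 7 libraries at or above 1 FPKM, so they were tested partly because some groups were high.

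**Figure D1:**
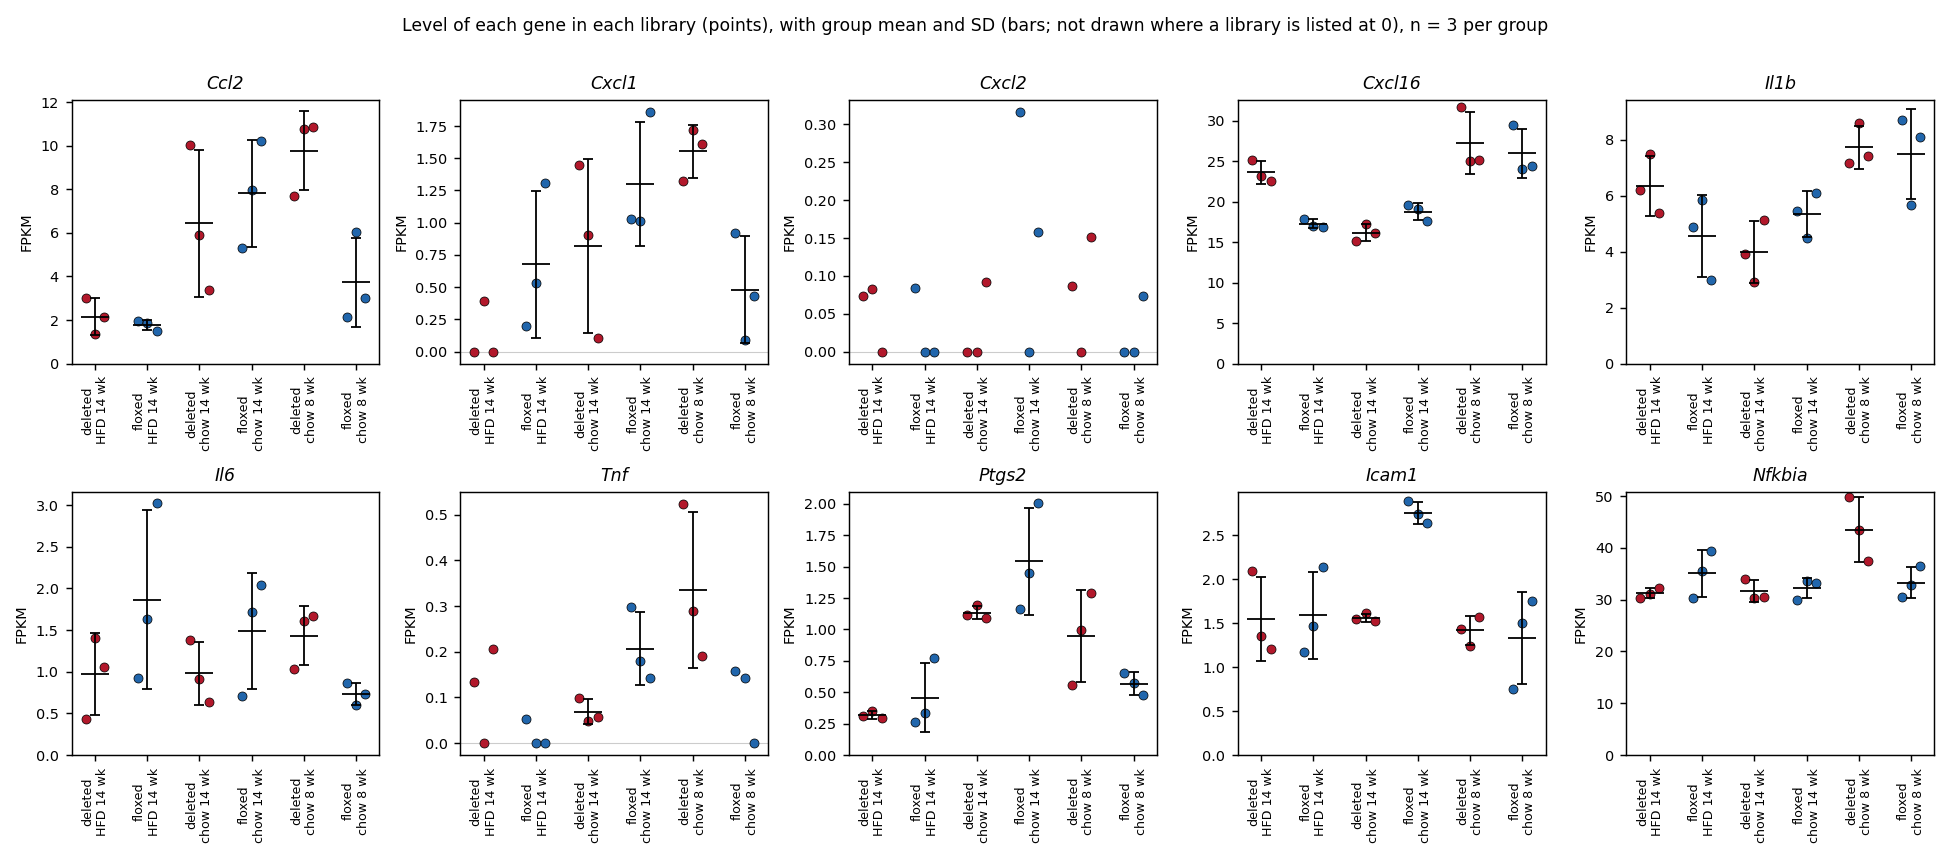
FPKM (vertical axes, each from its own scale) of the 10 genes in every library, in 6 groups from deleted on the high-fat diet (left) to floxed at 8 weeks (right). Points are libraries, red for deleted and blue for floxed, and black bars are the mean and SD of 3. Ccl2 and Ptgs2 lie low in both high-fat diet groups, Cxcl16 separates the genotypes on that diet, and Icam1 stands highest in floxed islets at 14 weeks on chow.

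Differences below are of log2(FPKM + 1), on which genes near or under 1 FPKM show less than their full fold change, and a gene is called at an adjusted p below 0.05 over all tested genes. Between genotypes, deleted against floxed islets, 1 of the 8 tested genes was called on the high-fat diet (10.7% of all tested genes were), none at 14 weeks on chow (0.114%) and none at 8 weeks (0.548%). By limma, 2 of the 8 at 14 weeks and 3 of the 8 at 8 weeks had an unadjusted p below 0.05, against 7.98% and 12.5% of all tested genes. The high-fat diet against chow gave 3 calls of 8 in deleted islets (15% of all tested genes) and 3 of 8 in floxed islets (28.5%). Age, 14 against 8 weeks on chow, gave 3 of 8 in deleted islets (2.91%) and 3 of 8 in floxed islets (4.15%). The interaction of genotype with diet called 1 of the 8 (3.53%) and that of genotype with age none (0.196%), with 6 of the 8 at an unadjusted p below 0.05 in the interaction with age, against 8.91% of all tested genes.

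**Figure D2:**
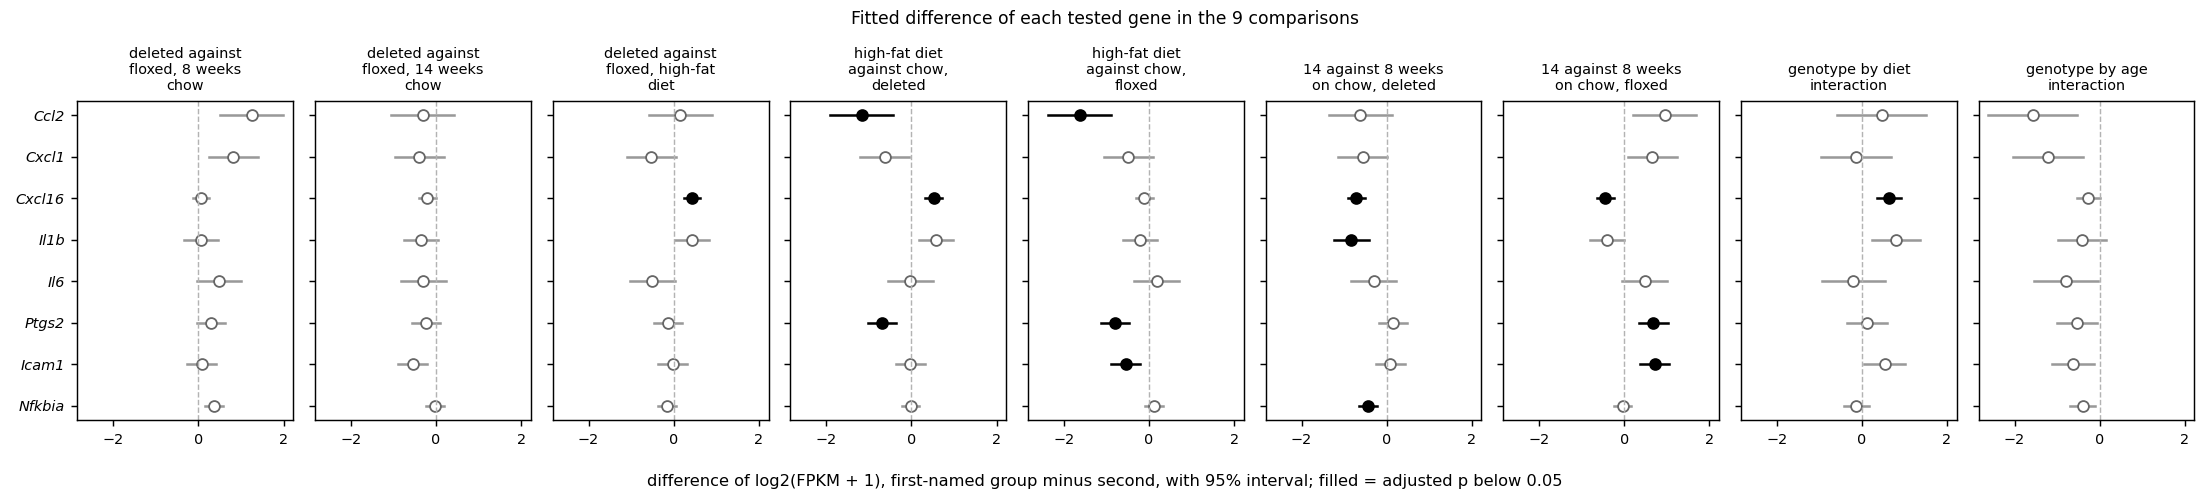
Fitted difference of log2(FPKM + 1) (horizontal axis) of the 8 tested genes in the 9 comparisons, as the group named before "against" minus the group named after it, or as an interaction. Lines are 95% intervals and filled points passed the adjusted threshold. Filled points for Cxcl16 stand in 5 panels, and those for Ccl2 and Ptgs2 lie left of 0 in both diet panels.

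Ccl2 (chromosome 11, 82035571 to 82037453, mm10) encodes the chemokine that draws monocytes through the receptor CCR2. On the high-fat diet it measured 2.99, 1.34 and 2.15 FPKM in the deleted libraries and 1.96, 1.85 and 1.51 FPKM in the floxed libraries. On chow at 14 weeks it measured 10.04, 5.91 and 3.36 FPKM in deleted and 5.30, 7.95 and 10.2 FPKM in floxed libraries. At 8 weeks it measured 7.68, 10.8 and 10.9 FPKM in deleted and 2.14, 6.05 and 3.01 FPKM in floxed libraries. The high-fat diet libraries were low in both genotypes and did not overlap with their chow groups, while at 8 weeks all deleted libraries lay above all floxed ones. On the diet, Ccl2 fell in floxed islets, to 0.227 ± 0.0446 times the chow level (ratio of means ± SE, n = 3 each), with a log2 difference of -1.63 (SE 0.345, adjusted p = 0.00311). In deleted islets it fell to 0.336 ± 0.126 times the chow level (-1.17, SE 0.345, adjusted p = 0.0356), but this call ended with only the compared groups in the fit (adjusted p = 0.105), with the replicate number as a block (0.0605), and without replicate 2 or 3 of the high-fat diet group (0.138 and 0.0839) or replicate 1 or 2 of the chow group (0.128 and 0.0794). The change on the diet was not shown to differ between genotypes (interaction 0.47, SE 0.487, adjusted p = 0.694). At 8 weeks the deleted level was 2.62 ± 0.875 times the floxed level without passing (1.26, SE 0.345, adjusted p = 0.126), and the genotype difference was 0.16 on the high-fat diet, with -0.31 at 14 weeks on chow.

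Cxcl1 and Cxcl2 encode closely related neutrophil-attracting chemokines that act through CXCR2 and are classical NF-kB targets. Their genes are neighbours on chromosome 5 (90891241 to 90893115 and 90903871 to 90905938, mm10), and the treatment of fragments that match more than one gene is not given in the sources used here. For each gene the 250 bases before the RefSeq start site (GRCm38.p6, the build of mm10), which lie close to the GENCODE gene starts given here, are shown because both hold the NF-kB binding consensus, the kappaB motif, which is set in capitals.
Cxcl1, chr5:90890995-90891244, plus strand: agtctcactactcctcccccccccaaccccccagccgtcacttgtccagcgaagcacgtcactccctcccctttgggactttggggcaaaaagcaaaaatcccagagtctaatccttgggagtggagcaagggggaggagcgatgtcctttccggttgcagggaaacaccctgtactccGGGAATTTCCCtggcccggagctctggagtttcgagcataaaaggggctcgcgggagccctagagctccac
Cxcl2, chr5:90903649-90903898, plus strand: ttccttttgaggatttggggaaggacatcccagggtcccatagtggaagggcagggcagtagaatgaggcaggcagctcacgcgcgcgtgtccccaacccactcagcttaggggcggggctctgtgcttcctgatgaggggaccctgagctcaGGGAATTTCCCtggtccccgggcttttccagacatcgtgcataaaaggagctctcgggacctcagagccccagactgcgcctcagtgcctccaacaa
In both, the capitals cover 2 matches, 1 on each strand, that overlap by all but 1 base. They begin 71 bases before the start site of Cxcl1 and 97 bases before that of Cxcl2. The motif was present in 4 of the 8 promoters of these genes found in the RefSeq table (Cxcl1, Cxcl2, Il6 and Nfkbia), and in 7.25% of all 32851 promoter windows of the same length. A match describes letters and not binding.

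Cxcl1 was low and varied between libraries of a group, and Cxcl2 was lower still. Cxcl1 on the high-fat diet was listed at 0, 0.393 and 0 FPKM in deleted libraries and at 0.198, 0.528 and 1.31 FPKM in floxed libraries. On chow at 14 weeks it measured 1.45, 0.901 and 0.109 FPKM in deleted and 1.03, 1.01 and 1.86 FPKM in floxed libraries. At 8 weeks it measured 1.32, 1.72 and 1.61 FPKM in deleted and 0.916, 0.0889 and 0.435 FPKM in floxed libraries. Only at 8 weeks did the genotypes not overlap, with the deleted libraries higher. That difference did not pass (0.82, SE 0.275, adjusted p = 0.192), except with sample quality weights (adjusted p = 0.0334). The differences on the high-fat diet (-0.53, adjusted p = 0.232) and at 14 weeks on chow (-0.39, adjusted p = 0.856) did not pass, and neither did the diet difference in deleted (-0.63, adjusted p = 0.133) or floxed islets (-0.49, adjusted p = 0.197). In deleted islets the diet difference passed with sample quality weights (-0.85, adjusted p = 0.0199) and without replicate 3 of the chow group (-0.95, adjusted p = 0.0259). In floxed islets all 14-week chow libraries lay above all 8-week ones, again without passing (0.65, adjusted p = 0.212). Cxcl2 was highest in floxed islets at 14 weeks on chow, at 0.316, 0 and 0.157 FPKM, and was listed at 0 in 1 or 2 libraries of every group.

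Cxcl16 (chromosome 11, 70453983 to 70459984, mm10), a membrane-bound chemokine that attracts T and NK cells through CXCR6 and also takes up oxidized lipoprotein, had the most calls of the 10 genes. The high-fat diet libraries measured 25.2, 23.2 and 22.5 FPKM in deleted islets and 17.9, 17.1 and 16.8 FPKM in floxed islets. On chow at that age it measured 15.2, 17.3 and 16.1 FPKM in deleted and 19.7, 19.1 and 17.6 FPKM in floxed libraries. At 8 weeks it measured 31.7, 25.0 and 25.1 FPKM in deleted and 29.5, 24.1 and 24.4 FPKM in floxed libraries. The deleted libraries were thus all above the floxed ones on the high-fat diet, all below them at 14 weeks on chow, and overlapped with them at 8 weeks.

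Cxcl16 on the high-fat diet was 1.37 ± 0.0532 times as high in deleted as in floxed islets (ratio of means ± SE), a rise of 0.43 on the log2 scale (SE 0.0932, adjusted p = 0.00521). The diet raised it in deleted islets to 1.46 ± 0.0739 times the chow level (0.52, SE 0.0932, adjusted p = 9.50e-04), and in floxed islets it was at 0.920 ± 0.0350 times the chow level (-0.11, adjusted p = 0.392). This difference between genotypes in the change on the diet was itself called (interaction 0.63, SE 0.132, adjusted p = 0.00932). With age on chow it fell in deleted islets to 0.593 ± 0.0531 times the 8-week level (-0.71, adjusted p = 1.69e-04) and in floxed islets to 0.722 ± 0.0542 times (-0.45, adjusted p = 0.00884), without a called difference between genotypes (-0.27, adjusted p = 0.581). Its calls on the high-fat diet between genotypes, for the diet and for age in deleted islets, and for the interaction held in every alternative run, with adjusted p-values of at most 0.0325. The age call in floxed islets ended without replicate 3 of the 14-week group (adjusted p = 0.0516) or replicate 1 of the 8-week group (0.0577). Of 12 T, NK and B lymphocyte markers 3 were tested. Nkg7, a granule gene of NK and cytotoxic T cells, rose on the diet in deleted (1.04, adjusted p = 4.63e-05) and floxed islets (0.56, adjusted p = 0.00449), with 0.37 between genotypes on the diet (adjusted p = 0.0832). Its group means on chow were 0 to 0.122 FPKM, so Nkg7 was tested only because it was high on the diet. The NK receptor gene Ncr1 was listed at 0 in 14 libraries and the T cell gene Cd3g in 15, for both with all those on chow among them. The T cell genes Cd3e and Cd8a were each listed at 0 in 15 libraries, Cd3d in 12 and Cd4 in 3. The part of these cells in the results on Cxcl16 was not tested.

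Among the cytokines, Il1b (chromosome 2, 129364570 to 129371139, mm10), which encodes interleukin-1 beta, measured 6.20, 7.51 and 5.39 FPKM in deleted and 4.87, 5.85 and 2.98 FPKM in floxed libraries on the high-fat diet. Il1b at 14 weeks on chow measured 3.91, 2.93 and 5.12 FPKM in deleted and 5.45, 4.49 and 6.10 FPKM in floxed libraries. At 8 weeks it measured 7.17, 8.61 and 7.44 FPKM in deleted and 8.72, 5.67 and 8.09 FPKM in floxed libraries. The genotypes overlapped in every condition. In deleted islets the 14-week chow libraries lay below both the high-fat diet and the 8-week libraries. With age it fell in deleted islets to 0.515 ± 0.0869 times the 8-week level (-0.83, SE 0.192, adjusted p = 0.0227). That call ended without any of replicates 1 and 2 of the 14-week group (adjusted p = 0.0809 and 0.0896) or 1, 2 and 3 of the 8-week group (0.0579, 0.0896 and 0.0503), with no filter on low values (0.0554) and with only the compared groups (0.0568). On the diet its level in deleted islets was 1.60 ± 0.297 times that on chow, just outside the threshold (0.58, adjusted p = 0.05002). In floxed islets the diet and age differences were -0.22 (adjusted p = 0.425) and -0.41 (adjusted p = 0.270), and neither interaction was called (diet 0.79, adjusted p = 0.124, and age -0.42, adjusted p = 0.720).

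Il6 (chromosome 5, 30013114 to 30019981, mm10), the gene of interleukin-6, passed in no comparison. Il6 on the high-fat diet measured 0.438, 1.41 and 1.06 FPKM in deleted and 0.920, 1.64 and 3.03 FPKM in floxed libraries. At 14 weeks on chow it measured 1.39, 0.913 and 0.642 FPKM in deleted and 0.708, 1.71 and 2.04 FPKM in floxed libraries, and at 8 weeks 1.03, 1.61 and 1.66 FPKM in deleted and 0.859, 0.6003 and 0.735 FPKM in floxed libraries. The spread within a group reached 1.07 FPKM (SD, floxed on the high-fat diet), and the genotypes failed to overlap only at 8 weeks, where deleted libraries were higher (0.48, SE 0.251, adjusted p = 0.452). Its promoter is shown because it holds, beside a kappaB match on the strand of the gene (capitals), the AP-1 motif (TGANTCA, searched on both strands, which match at the same bases), a motif found in 1 of the 8 promoters and in 6.75% of all windows.
Il6, chr5:30012864-30013113, plus strand: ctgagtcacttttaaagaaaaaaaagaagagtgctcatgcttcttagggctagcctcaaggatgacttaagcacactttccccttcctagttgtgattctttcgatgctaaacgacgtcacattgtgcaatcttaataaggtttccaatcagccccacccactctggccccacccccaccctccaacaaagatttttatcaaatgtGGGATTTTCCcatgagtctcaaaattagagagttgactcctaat
The kappaB match begins 44 bases before the start site and the AP-1 match, which lies within the lower-case bases, 249 bases before it.

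Tnf (chromosome 17, 35199381 to 35202007, mm10), the gene of tumour necrosis factor, was too low to be tested with the filter. It was listed at 0.134, 0 and 0.206 FPKM in deleted and 0.0527, 0 and 0 FPKM in floxed libraries on the high-fat diet. At 14 weeks on chow it measured 0.0995, 0.0480 and 0.0578 FPKM in deleted and 0.298, 0.180 and 0.143 FPKM in floxed libraries, and at 8 weeks 0.524, 0.290 and 0.191 FPKM in deleted and 0.157, 0.142 and 0 FPKM in floxed libraries. The deleted libraries were all higher at 8 weeks and all lower at 14 weeks on chow. Without the filter, over 18802 genes, neither difference passed (0.27, adjusted p = 0.241 at 8 weeks, and -0.17, adjusted p = 0.733 at 14 weeks). On the diet the floxed libraries lay below those on chow (-0.24, adjusted p = 0.0627), and with age the deleted 14-week libraries lay below the 8-week ones (-0.31, adjusted p = 0.0972).

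Ptgs2 (chromosome 1, 150100031 to 150108227, mm10) encodes cyclooxygenase-2, the inducible enzyme of prostaglandin synthesis. High-fat diet levels were 0.311, 0.354 and 0.293 FPKM in deleted and 0.263, 0.334 and 0.773 FPKM in floxed libraries. Levels on chow at 14 weeks were 1.12, 1.19 and 1.09 FPKM in deleted and 1.17, 1.45 and 2.01 FPKM in floxed libraries, and at 8 weeks 0.560, 0.996 and 1.29 FPKM in deleted and 0.656, 0.573 and 0.478 FPKM in floxed libraries. In both genotypes every high-fat diet library lay below every 14-week chow library. The libraries at or above 1 FPKM were all on chow and included every 14-week one, so Ptgs2 was tested because it was high there. Those 14-week groups are the ones that its diet and age differences are measured with. On the diet Ptgs2 fell to 0.282 ± 0.0178 times the chow level in deleted islets (-0.69, SE 0.159, adjusted p = 0.00584) and to 0.296 ± 0.114 times in floxed islets (-0.81, SE 0.159, adjusted p = 9.23e-04). With a pseudocount of 0.1, which compresses low values less, these differences were -1.56 and -1.64. Both calls held in every alternative in which the gene was tested. With age it rose in floxed islets to 2.71 ± 0.497 times the 8-week level (0.68, adjusted p = 0.0170, or 1.27 with a pseudocount of 0.1), a call that ended without replicate 2 or 3 of the 14-week group (adjusted p = 0.0572 and 0.106) or replicate 3 of the 8-week group (0.0665). In deleted islets the age difference was 0.15 (adjusted p = 0.724), and the age effect was not shown to differ between genotypes (-0.54, adjusted p = 0.458).

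Icam1 (chromosome 9, 21015985 to 21028817, mm10) encodes the adhesion molecule by which leukocytes bind endothelium and other cells. After the high-fat diet it measured 2.10, 1.35 and 1.20 FPKM in deleted and 1.17, 1.46 and 2.14 FPKM in floxed libraries. On chow at 14 weeks Icam1 measured 1.54, 1.61 and 1.53 FPKM in deleted and 2.89, 2.74 and 2.64 FPKM in floxed libraries, and at 8 weeks 1.43, 1.25 and 1.58 FPKM in deleted and 0.748, 1.51 and 1.75 FPKM in floxed libraries. The floxed libraries at 14 weeks on chow lay above all 15 others. There the deleted level was 0.566 ± 0.0177 times the floxed level, but the difference did not pass over all genes (-0.55, SE 0.165, adjusted p = 0.240). In floxed islets Icam1 fell on the diet to 0.577 ± 0.105 times the chow level (-0.55, adjusted p = 0.0168), and rose with age to 2.06 ± 0.470 times the 8-week level (0.71, adjusted p = 0.0166, or 1.07 with a pseudocount of 0.1). The diet call ended without replicate 1 or 2 of the high-fat diet group (adjusted p = 0.0908 and 0.0508) or replicate 1 of the chow group (0.0534), and the age call without replicate 2 or 3 of the 14-week group (0.0622 and 0.0509) or replicate 1 of the 8-week group (0.108). In deleted islets it was at -0.02 on the diet (adjusted p = 0.952) and at 0.09 with age (adjusted p = 0.870). The interactions, 0.53 with diet (adjusted p = 0.244) and -0.63 with age (adjusted p = 0.369), were not called.

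Nfkbia (chromosome 12, 55489410 to 55492647, mm10) encodes the inhibitor IkB-alpha. Its levels after the high-fat diet were 30.3, 31.1 and 32.3 FPKM in deleted and 30.4, 35.6 and 39.4 FPKM in floxed libraries. Those at 14 weeks on chow were 34.1, 30.4 and 30.6 FPKM in deleted and 30.0, 33.5 and 33.2 FPKM in floxed libraries, and at 8 weeks 49.8, 43.4 and 37.4 FPKM in deleted and 30.5, 32.8 and 36.5 FPKM in floxed libraries. The 3 deleted libraries at 8 weeks lay above the 3 floxed libraries of that age and above all deleted libraries of the other conditions. With age Nfkbia fell in deleted islets to 0.727 ± 0.0658 times the 8-week level (-0.44, SE 0.0990, adjusted p = 0.0183), a call that ended with only the compared groups in the fit (adjusted p = 0.105) and without replicate 2 or 3 of the 14-week group (0.0572 and 0.0742) or replicate 1 or 2 of the 8-week group (0.102 and 0.0562). At 8 weeks its deleted level was 1.31 ± 0.127 times the floxed level without passing (0.37, adjusted p = 0.0953), except without replicate 3 of the deleted group (adjusted p = 0.0379). The diet differences were -0.02 in deleted (adjusted p = 0.937) and 0.11 in floxed islets (adjusted p = 0.422). Its promoter is shown for comparison with those of the chemokine genes, since its kappaB match, in capitals, reads GGGAATTTCC on the other strand, the same letters as in Cxcl1 and Cxcl2, and ends 20 bases before the start site.
Nfkbia, chr12:55492648-55492897, minus strand: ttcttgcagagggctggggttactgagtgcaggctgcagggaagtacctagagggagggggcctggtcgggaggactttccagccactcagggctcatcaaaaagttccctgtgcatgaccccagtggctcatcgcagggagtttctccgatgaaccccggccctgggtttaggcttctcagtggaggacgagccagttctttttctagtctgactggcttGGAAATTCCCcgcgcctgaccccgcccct
The promoters of Il1b, Tnf, Ptgs2 and Icam1 held no match of the consensus in this window.

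Side by side, the 8 tested genes leaned to opposite sides in the chow comparisons of the genotypes, though none passed in either. At 8 weeks all 8 differences were positive, deleted minus floxed, with a median of 0.33, where 48.4% of all tested genes were positive and their median was -0.01. At 14 weeks on chow all 8 were negative, with a median of -0.31, where 49.1% of all tested genes were negative and their median was 0.00. Several of these differences were close to 0. Left-out libraries turned the sign of Cxcl16, Il1b and Icam1 at 8 weeks and of Ccl2 and Nfkbia at 14 weeks, and with sample quality weights Icam1 was at -0.10 at 8 weeks, and Ccl2 and Nfkbia were at 0.03 and 0.02 at 14 weeks. At 8 weeks 4 of the 8 had deleted libraries entirely above the floxed ones (Ccl2, Cxcl1, Il6 and Nfkbia), where 16.5% of all tested genes did not overlap in either direction. At 14 weeks on chow 2 of the 8 had them entirely below (Cxcl16 and Icam1), where 13.6% did not overlap. Medians of cell markers had the same signs. That of the tested endothelial markers was 0.19 at 8 weeks and -0.32 at 14 weeks, and that of the macrophage markers 0.12 and -0.29. By limma 2 of 13 macrophage markers at 8 weeks and 8 at 14 weeks had an unadjusted p below 0.05. Among 11 endothelial markers 4 and 8 did, and among all tested genes 12.5% and 7.98%. The part of these cells was not tested. The interaction of genotype with age is the 14-week minus the 8-week difference, so its sign follows from these values. Its sizes were led by Ccl2 at -1.57 (adjusted p = 0.283) and Cxcl1 at -1.21 (adjusted p = 0.270). On the high-fat diet 3 were positive and 5 negative, with a median of -0.07, and Icam1 turned to 0.03 with quantile normalization.

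On the diet the tested genes did not share a direction, with 2 positive and 6 negative in each genotype, and medians of -0.02 in deleted and -0.35 in floxed islets, beside 0.00 and -0.01 over all tested genes. With quantile normalization Il6 in deleted islets turned to 0.02. The 3 calls were Ccl2 and Ptgs2, lower, and Cxcl16, higher, in deleted islets, and Ccl2, Ptgs2 and Icam1, lower, in floxed islets. Both diet comparisons had 4 and 3 of the 8 genes without overlap, beside 33.7% and 43.3% of all tested genes. With age, the calls in deleted islets were Cxcl16, Il1b and Nfkbia, all lower, where 0.564% of all tested genes were called lower. Those in floxed islets were Ptgs2 and Icam1, higher, and Cxcl16, lower. The diet and age comparisons of a genotype share its 14-week chow libraries, so a gene high or low there moves in both.

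The order of the group means differed between genes. Neighbours in it are close in mean by construction, and the share of separated steps over all tested genes was not computed. The steps below therefore describe how firm each order is and do not set these genes apart from others. Of the 5 neighbouring groups in the order of each gene, all 5 steps overlapped for Ccl2, Cxcl1, Cxcl2, Il1b, Il6, Tnf, Ptgs2 and Nfkbia. Cxcl16 had 1 step without overlap, between deleted islets on the high-fat diet and floxed islets at 14 weeks on chow, and Icam1 had 1, between floxed islets at 14 weeks on chow and floxed islets on the high-fat diet. Deleted islets at 8 weeks had the highest mean of Ccl2, Cxcl1, Cxcl16, Il1b, Tnf and Nfkbia, and floxed islets at 14 weeks on chow had the highest of Cxcl2, Ptgs2 and Icam1. Il6 was highest in floxed islets on the high-fat diet, at 1.86 ± 1.07 FPKM (mean ± SD, n = 3).

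Cxcl16 and Il1b had the same order of group means, and over the 18 libraries their log2 values had Pearson's r = 0.76 (Spearman's rho = 0.78), but once group means were removed r was 0.01. Cxcl1 and Il6 had r = 0.65 (rho = 0.64) and r = 0.76 within groups, and Il6 and Ptgs2 had r = 0.36 (rho = 0.34) and r = 0.74 within groups. These are descriptions over libraries that share groups of 3, islet preparations and low values. Replicate 3 of the floxed high-fat diet group held the highest values of its group for Cxcl1, Il6, Ptgs2, Icam1 and Nfkbia, and the lowest for Ccl2, Cxcl16 and Il1b. The same library had the highest summed macrophage markers (342 FPKM, against 311 and 303 FPKM in replicates 1 and 2), endothelial markers (225, against 184 and 176 FPKM) and fibroblast and stellate markers (29.3, against 11.1 and 16.6 FPKM) of its group. The part of these cells in the values was not tested.

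By likeness of pattern over the 18 libraries, the gene closest to Ptgs2 was Inhba, which encodes an activin subunit (Pearson's r = 0.93, rho = 0.92, and r = 0.93 without the 2 libraries farthest from the Ptgs2 median). It was followed by the cytokine gene Il11 (r = 0.92) and the integrin gene Itga5 (r = 0.92). Closest to Ccl2 were the peroxidase gene Gpx8 (r = 0.90, rho = 0.93), the transcriptional regulator Id1 (r = 0.88) and the related chemokine gene Ccl7 (r = 0.88), and closest to Cxcl16 were Gch1, an enzyme of tetrahydrobiopterin synthesis (r = 0.90), the protease gene Bace2 (r = 0.90) and the sulfotransferase gene Sult1d1 (r = 0.87). Cxcl1 was closest to Bnip2 (r = 0.86), Tfpi2 (r = 0.86) and the intermediate filament gene Vim (r = 0.84), and Icam1 to Muc1 (r = 0.87), Trf (r = 0.86) and Pdlim1 (r = 0.83). Il1b (r up to 0.83), Il6 (up to 0.81) and Nfkbia (up to 0.80) had looser neighbours, and for Nfkbia the closest, Pibf1, had r = 0.63 without the 2 farthest libraries.

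Among other ligands of the pathway, 14 of 31 listed cytokine and chemokine genes were tested. On the high-fat diet, deleted against floxed, 2 rose and 3 fell (10.7% of all tested genes were called), with a median of -0.23 beside 0.01 over all tested genes. Cx3cl1, the fractalkine gene, rose by 0.57 (adjusted p = 0.00158), as did Cxcl12 by 0.62 (adjusted p = 0.0429), while the chemokine genes Ccl4 (-1.07, adjusted p = 0.00161) and Ccl5 (-1.21, adjusted p = 0.0216) and the interferon-induced chemokine gene Cxcl10 (-1.33, adjusted p = 0.0285) fell. The high-fat diet against chow lowered 3 and raised none of the 14 in deleted islets, and lowered 5 and raised 3 in floxed islets, where 15% and 28.5% of all tested genes were called. Ccl7, another monocyte chemokine gene, fell in deleted (-1.10, adjusted p = 0.00589) and floxed islets (-1.45, adjusted p = 3.65e-04), as did Il11 (-1.26 and -1.18). Cxcl14 (-0.70) fell in deleted islets, and Csf1 (-0.68), the macrophage growth factor gene, and Cxcl12 (-0.92) fell in floxed islets. Ccl3 (0.91), Ccl4 (0.67) and Cxcl10 (1.12) rose in floxed islets on the diet. With age 2 rose in floxed islets (4.15% of all tested genes were called), Il11 (1.21, adjusted p = 0.0134) and Ccl7 (1.01, adjusted p = 0.0261). None was called by limma in deleted islets (2.91%), where 3 had an unadjusted p below 0.05, beside 15.2% of all tested genes. At 8 weeks and at 14 weeks on chow none was called by limma between genotypes. There 4 and 3 had an unadjusted p below 0.05, beside 12.5% and 7.98% of all tested genes. Ccl4 was the one ligand with a called interaction of genotype with diet (-1.11, adjusted p = 0.0324), where 3.53% of all tested genes were called.

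Of 29 receptor and adaptor genes 23 were tested, and limma called none of them in the 3 genotype comparisons. An unadjusted p below 0.05 was reached by 7 on the high-fat diet, 2 at 14 weeks on chow and 1 at 8 weeks, beside 25.7%, 7.98% and 12.5% of all tested genes. On the diet 2 of the 23 rose and 1 fell in deleted islets, and 3 rose and 5 fell in floxed islets, near the shares of all tested genes (15% and 28.5%). Irak1, a kinase downstream of interleukin-1 and Toll-like receptors, rose in deleted (0.28, adjusted p = 0.00757) and floxed islets (0.29, adjusted p = 0.00327), as did the interleukin-6 receptor gene Il6ra (0.49 and 0.62), while Tlr2 fell by 0.40 in deleted islets. Cd14, the endotoxin co-receptor gene that is also a macrophage marker, fell by 1.16 in floxed islets on the diet (adjusted p = 5.59e-04), rose by 1.10 with age there (adjusted p = 0.00575), and had a called interaction of genotype with diet (1.12, adjusted p = 0.0453). The ubiquitin ligase gene Traf6 fell in floxed islets on the diet (-0.35, adjusted p = 0.00705).

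Of 19 other NF-kB subunits, kinases and inhibitors 17 were tested, and 0 to 2 were called per comparison by limma. Between genotypes on the high-fat diet the IkB kinase gene Chuk rose by 0.22 (adjusted p = 0.0403) and the inhibitor-like gene Nfkbiz fell by 0.42 (adjusted p = 0.0207). There 10.7% of all tested genes were called. An unadjusted p below 0.05 was reached by 8 of the 17, beside 25.7% of all tested genes. On the diet Bcl3 fell in deleted islets (-0.61, adjusted p = 0.0122), and Chuk (-0.27) and the deubiquitinase gene Cyld (-0.27) fell in floxed islets. These counts stand beside 15% and 28.5% of all tested genes called in deleted and floxed islets. None was called at 8 weeks or at 14 weeks on chow between genotypes (0 and 1 at an unadjusted p below 0.05), with age in deleted or floxed islets (2 and 0), or in either interaction (2 each). Of all tested genes, 12.5% and 7.98% had such a p between genotypes, and 15.2% and 17.7% with age. In the interactions with diet and with age 17.1% and 8.91% did.

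Of other NF-kB target genes, 17 of 26 were tested. Some of them, such as Cxcl10, Csf1, Junb, Zfp36 and Ier3, also stand on another list. At 8 weeks and at 14 weeks on chow limma called none between genotypes. There 5 and 4 had an unadjusted p below 0.05, beside 12.5% and 7.98% of all tested genes. Neither interaction called any of them by limma. In that of genotype with age, 10 of the 17 had an unadjusted p below 0.05, beside 8.91% of all tested genes, with a median of -0.55. In that with diet 6 did, beside 17.1%, with a median of 0.29. In deleted against floxed islets on the high-fat diet Bcl2l1, the survival gene of Bcl-xL, rose by 0.22 (adjusted p = 0.0156) and Cxcl10 fell. On the diet 2 rose and 3 fell in deleted islets, among them the complement gene C3 (-0.53, adjusted p = 0.0112) and the superoxide dismutase gene Sod2 (0.22, adjusted p = 0.0359), and 2 rose and 6 fell in floxed islets, among them Sod2 (0.38), Bcl2l1 (-0.43) and Tnfaip2 (-0.60), beside the same 15% and 28.5% of all tested genes. With age C3 alone was called in deleted islets (0.58, adjusted p = 0.0231), and 4 rose in floxed islets: Ier3 (1.05, adjusted p = 4.69e-04), the lipocalin gene Lcn2 (1.90), Bcl2a1b (0.69) and the adhesion gene Vcam1 (0.79, adjusted p = 0.0476). In these comparisons 2.91% and 4.15% of all tested genes were called. The median of the 17 target genes was 0.30 in floxed and -0.06 in deleted islets with age, beside -0.02 and -0.01 over all tested genes.

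Immediate early and dissociation stress genes, which respond to handling as well as to cytokines, were also counted. At 8 weeks and at 14 weeks on chow none of 17 tested was called by limma between genotypes. There 7 and 3 had an unadjusted p below 0.05, beside 12.5% and 7.98% of all tested genes. Their medians were 0.21 and -0.19, beside -0.01 and 0.00 over all tested genes. In deleted against floxed islets on that diet Ier2 fell by 0.47 (adjusted p = 0.0195). On the diet 5 rose and 1 fell in deleted islets, led by the heat shock genes Hspa1a (1.20, adjusted p = 5.77e-04) and Hspa1b (1.22, adjusted p = 0.00444), and 3 rose and 3 fell in floxed islets, again beside 15% and 28.5% of all tested genes. Dusp1, a phosphatase gene of stress kinases, rose by 0.51 with age in floxed islets (adjusted p = 2.94e-04) and had a called interaction of genotype with age (-0.50, adjusted p = 0.0471).

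**Figure D3:**
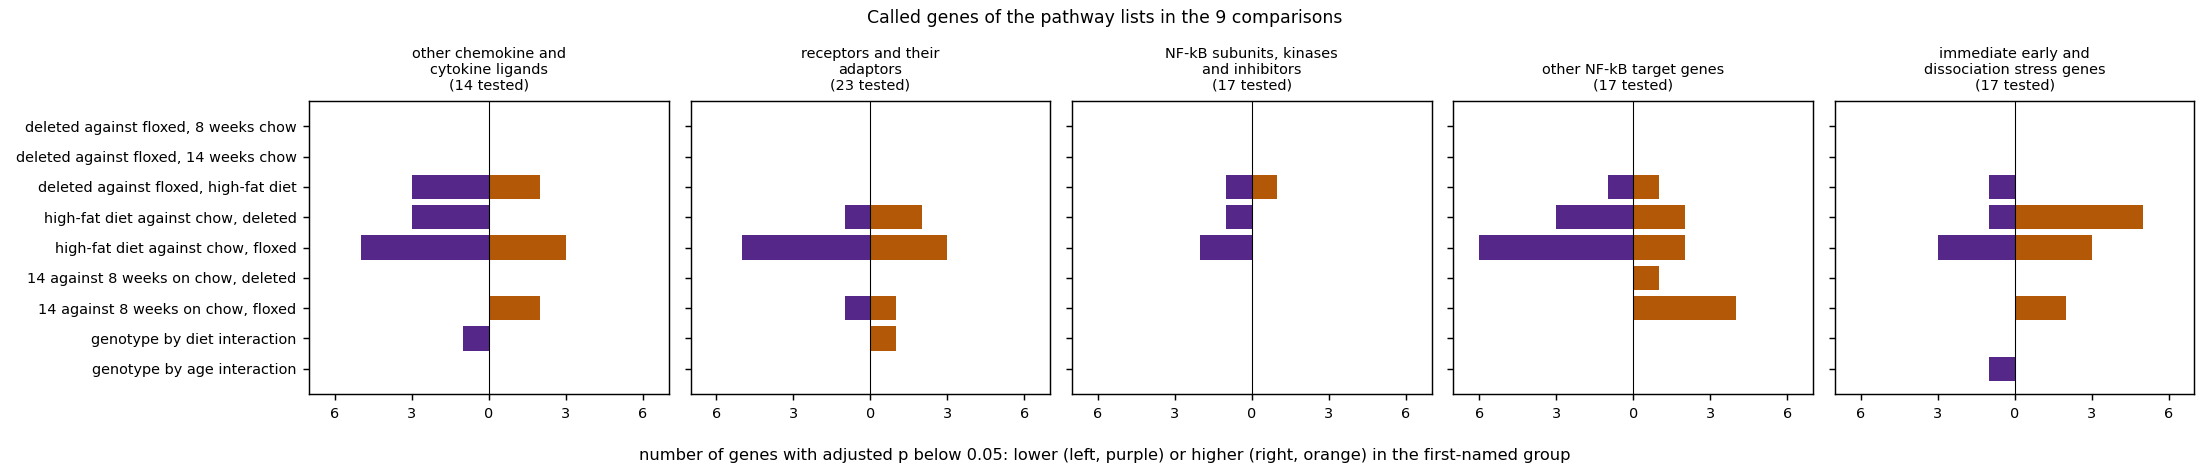
Number of genes of each pathway list with an adjusted p below 0.05 (horizontal axis; lower to the left in purple, higher to the right in orange) in the 9 comparisons (vertical axis). The genotype comparisons on chow, at 8 and at 14 weeks, have no bar, and the longest falls, 5, 5 and 6 genes, stand in the diet comparison of floxed islets.

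Markers of other cells moved with the diet, age and genotype comparisons. Summed over 15 genes, macrophage markers reached 302 to 308 FPKM on the high-fat diet and 360 to 444 FPKM on chow at 14 weeks in deleted islets, and 303 to 342 against 459 to 522 FPKM in floxed islets. At 8 weeks they reached 307 to 339 FPKM in deleted and 292 to 319 FPKM in floxed islets. Of 13 tested macrophage markers the diet lowered 2 in deleted and 8 in floxed islets, where 15% and 28.5% of all tested genes were called. The count in deleted islets is near that share. Age raised 2 in deleted and 11 in floxed islets, where 2.91% and 4.15% of all tested genes were called. Between genotypes, deleted against floxed, 1 was higher and 1 lower on the high-fat diet (10.7% of all tested genes were called). At 14 weeks on chow 1 was lower (0.114%), and at 8 weeks limma called none (0.548%). At 8 weeks 2 had an unadjusted p below 0.05, beside 12.5% of all tested genes. The sum of 12 acinar markers was 85.8 to 178 FPKM on the diet and 1400.0 to 2588 FPKM on chow in deleted islets, and 20.2 to 299.7 against 931 to 4684 FPKM in floxed islets. At 8 weeks it was 39.1 to 1223 FPKM in deleted and 80.5 to 219 FPKM in floxed islets. Of 10 tested acinar markers the diet lowered 8 in deleted and 10 in floxed islets, where 15% and 28.5% of all tested genes were called.

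Fibroblast and stellate markers summed to 7.85 to 11.0 FPKM on the diet and 20.5 to 35.1 FPKM on chow at 14 weeks in deleted islets, and to 11.1 to 29.3 against 27.6 to 50.6 FPKM in floxed islets. Of 7 tested fibroblast and stellate markers the diet lowered 6 in deleted and 3 in floxed islets (15% and 28.5% of all tested genes were called). Endothelial markers, from cells that carry Icam1, summed to 146 to 156 FPKM in deleted and 176 to 225 FPKM in floxed islets on the diet, to 165 to 188 and 219 to 229 FPKM at 14 weeks on chow, and to 188 to 212 and 144 to 188 FPKM at 8 weeks. Their part in the results on Ccl2, Ptgs2, Icam1 and Il1b was not tested. Of 11 tested endothelial markers 6 were lower in deleted than in floxed islets on the high-fat diet (10.7% of all tested genes were called). On chow limma called none between genotypes at 14 or 8 weeks. There 8 and 4 had an unadjusted p below 0.05, beside 7.98% and 12.5% of all tested genes. Of 6 tested duct markers 1 was higher between genotypes on the high-fat diet (10.7% of all tested genes were called). The diet raised 1 and lowered 1 in deleted islets (15%). In floxed islets it lowered 3 (28.5%), namely Krt19 (-1.84), Muc1 (-1.15) and Spp1 (-1.002). With age 1 rose in deleted islets (Krt19, 1.56), where 2.91% of all tested genes were called. The same 3 rose with age in floxed islets (Krt19 1.43, Muc1 1.23 and Spp1 1.05), where 4.15% were called. The floxed diet and age comparisons are those in which Icam1 was called. The part of duct cells in the results on Icam1 was not tested. Lymphocyte markers summed to at most 7.01 FPKM in any library, a sum led by the B cell gene Cd79a that does not show the rise of Nkg7 on the diet. The neutrophil genes Mpo and Elane were listed at 0 in all 18 libraries, with S100a8 and S100a9 listed at 0 in 15 and 16. Csf3r and Cxcr2, on the same list, were detected in all 18 libraries. Their group means were low, at 0.190 to 0.361 FPKM for Csf3r and 0.355 to 0.906 FPKM for Cxcr2. The Cxcr2 mean was highest in deleted islets on the high-fat diet. For Cxcl16 on the high-fat diet, the macrophage sums overlapped between genotypes. There 3 of 10 beta cell markers and 4 of 6 alpha cell markers were higher in deleted islets, where 10.7% of all tested genes were called. The diet raised 9 of 10 beta cell markers in deleted islets, and raised 4 and lowered 1 of 10 in floxed islets. Of all tested genes 15% and 28.5% were called in these comparisons. The interaction of genotype with diet called 2 beta cell and 4 alpha cell markers higher, beside 3.53% of all tested genes called. Their part in the results on Cxcl16 was not tested.

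**Figure D4:**
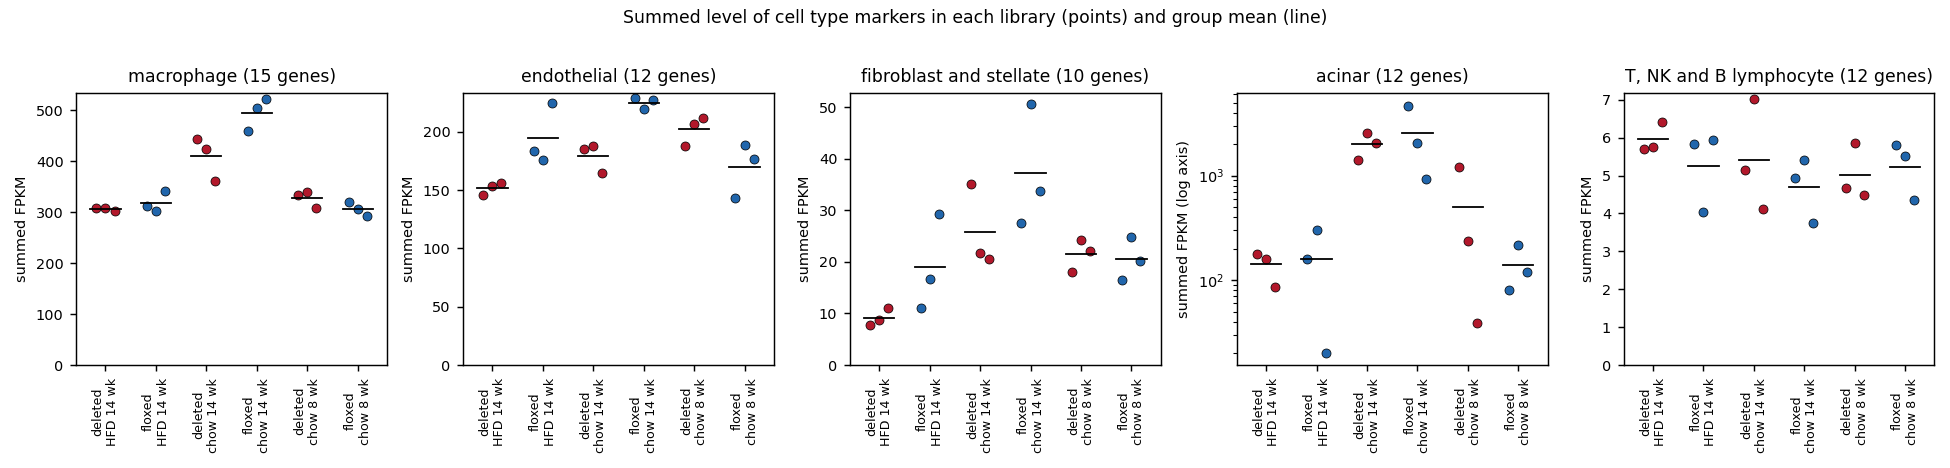
Summed FPKM (vertical axes, logarithmic for acinar markers) of 5 marker lists in every library, by group from deleted on the high-fat diet (left) to floxed at 8 weeks (right). Points are libraries, red for deleted and blue for floxed, and lines are group means. Macrophage sums are highest in floxed islets at 14 weeks on chow, and acinar sums are highest in both groups at 14 weeks on chow.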

How the data were processed

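Gene-level FPKM per library were deposited by the authors, 1 table for each of the 18 libraries. The unit is read from Cufflinks and the values, as no label or header names it. The submitters' processing notes name Cufflinks 2.2.1, SAMtools 0.1.19, Bowtie2 2.2.3, TopHat2 2.0.13 and the mm10 build. Total RNA, full-length cDNA and a library kit that does not mark strand were used, per the labels' protocols. FPKM hold no fragment counts, so no counting interval is given.

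From these values log2(FPKM + 1) was fitted over 6 group means with limma 3.58.1 (R 4.3.3, trended and robust variance), for the 12234 of 24346 genes that reached 1 FPKM in 3 or more libraries. The 9 comparisons were adjusted by Benjamini-Hochberg over all tested genes, with a threshold of 0.05. The fit was tested on simulated data. Alternatives were quantile normalization, median-ratio scaling, a pseudocount of 0.1, no filter or one on a mean of 5 FPKM, a replicate block, sample quality weights, only the compared groups, and each library left out. Gene positions are from GENCODE on GRCm38. All 10 genes, and for each tested one the 3 genes with the highest Pearson's r, are named; list genes named were among the called ones. The members and lists were chosen with earlier results of these data known.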

Additional observations from a re-analysis of the deposited data

Results flagged for a closer look

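Cxcl16 was marked because its genotype difference changed between diets. The interaction of genotype with diet was 0.63 on the log2 scale (SE 0.132, limma adjusted p = 0.00932). Deleted against floxed, all deleted libraries were higher on the high-fat diet (0.43, adjusted p = 0.00521) and all were lower at 14 weeks on chow (-0.20, adjusted p = 0.591). The chow difference alone did not pass.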

How the results depend on the processing

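Of 14 called values, none changed sign in any alternative run, and those of Cxcl16 (apart from age in floxed islets), of Ptgs2 on the diet and of Ccl2 on the diet in floxed islets kept their call wherever tested. The number of these genes called became 1 (from 0) at 8 weeks between genotypes and 5 (from 3) on the diet in deleted islets with sample quality weights, 1 (from 3) on the diet and with age in floxed islets when a mean of 5 FPKM was required, so that fewer of them were tested, and 1 (from 3) with age in deleted islets with only the compared groups. Leaving out each library gave 0 to 1 calls between genotypes at 8 weeks, 2 to 5 on the diet in deleted and 2 to 3 in floxed islets, 1 to 3 with age in deleted and 0 to 3 in floxed islets (0 without replicate 3 of the floxed 14-week chow group). Il1b on the diet in deleted islets passed in 9 alternatives and Cxcl1 there in 2, which with the 3 main calls make up the 5. The cause was not tested.

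Over all genes, calls between genotypes at 8 weeks (67) were 25 without a filter, 406 with weights and 44 with only the compared groups, and at 14 weeks on chow (14) were 25 with a required mean of 5 FPKM, 27 with quantile normalization, 114 with weights and 2 with only the compared groups. With weights they were 2834 on the diet in deleted islets (1830), 1032 and 963 with age in deleted (356) and floxed islets (508), 778 for the interaction with diet (432) and 182 for that with age (24). With only the compared groups they were 85 with age in deleted islets and 14 for the interaction with age, which had 3 without a filter.

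Signs turned 35 times among 1836 values, all of them values that were not called. With weights Icam1 was -0.10 at 8 weeks, and Ccl2 0.029 and Nfkbia 0.016 at 14 weeks on chow, between genotypes. With quantile normalization Icam1 was 0.033 between genotypes on the high-fat diet and Il6 0.018 on the diet in deleted islets. The others turned with a library left out, within the ranges that follow. Between genotypes at 8 weeks these were Cxcl16 -0.045 to 0.16, Il1b -0.11 to 0.16, Icam1 -0.12 to 0.21. Between genotypes at 14 weeks on chow these were Ccl2 -0.65 to 0.024, Nfkbia -0.076 to 0.0039. Between genotypes on the high-fat diet these were Ccl2 -0.029 to 0.36, Ptgs2 -0.22 to 0.023, Icam1 -0.17 to 0.13. On the diet in deleted islets these were Il6 -0.19 to 0.19, Icam1 -0.17 to 0.076, Nfkbia -0.045 to 0.035. On the diet in floxed islets these were Il1b -0.39 to 0.0061, Il6 -0.10 to 0.43. With age in deleted islets these were Ptgs2 -0.0032 to 0.27. With age in floxed islets these were Nfkbia -0.10 to 0.023. In the interaction with diet these were Cxcl1 -0.46 to 0.11, Il6 -0.46 to 0.079, Ptgs2 -0.015 to 0.26.

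Nothing in the labels says that a replicate number marks a shared batch or litter, so the numbers were not taken to pair the samples in the main fit. The correlations cannot settle whether they do. The 45 pairs with the same number had correlations of -0.16 to 0.23 (median 0.041) and the 90 others -0.23 to 0.22 (median -0.016), and 12 of 18 libraries correlated best with their own number, a lean towards pairing in the data. With the replicate block Ccl2 on the diet in deleted islets had an adjusted p of 0.0605, and no other call changed. Depth is unknown, so it cannot be said which zeros of Cxcl1, Cxcl2 and Tnf were limited by it.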
